A study of Homo sapiens with 12 samples.

Results

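The genes described here are 10 of those that take part in the control of the G1 phase of the cell cycle. They comprise the D-type cyclins CCND1, CCND2 and CCND3 and the E-type cyclins CCNE1 and CCNE2. The others are the CIP/KIP inhibitors CDKN1A (p21), CDKN1B (p27) and CDKN1C (p57), and the transcription factor genes MYC and MYCN. The 10 were picked by gene name from the 60617 genes with TPM values and the 58575 genes with read counts. All 10 had enough reads to enter the test.

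D-type cyclins carry growth signals to the kinases CDK4 and CDK6, which phosphorylate the retinoblastoma protein, and E-type cyclins then activate CDK2 for entry into S phase. CIP/KIP proteins bind cyclin and kinase pairs, and CDKN1A is a target of p53. MYC and MYCN encode factors that pair with MAX on E-box sites of growth genes, and pluripotent stem cells are known for a short G1 phase and for high MYCN.

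RNA-Seq was performed on 201B7, an established human induced pluripotent stem cell (iPSC) line, so every library came from 1 donor line, and cells were harvested on Day 5. Cond 1 was the control, Cond 2 (low nutrient) received StemFit medium that had been heated at 56 °C for 30 min, Cond 3 (differentiation) received DMEM with 10% FBS, and Cond 4 (physical stimulus) was pipetted 20 times when the cells were passaged. By the study's account, the heated medium of Cond 2 began earlier in the culture than the FBS medium of Cond 3. Medium and length of exposure therefore cannot be told apart between Cond 2 and Cond 3. There were 12 libraries, 3 for every condition. The design text speaks of 3 plates with a well for each condition, and no label ties a library to a plate. The study's methods describe the arrangement as run 3 times, whereas its results speak of technical replicates. The level of replication is thus not settled, and p-values measure only the spread between these libraries. Levels are given in TPM, reads per length of gene brought to one total for every library, and changes as log2 fold changes of the read counts. Over the 14253 genes with at least 1 TPM in every library, the median difference of log2(TPM + 1) between Cond 2 and Cond 1 was 0.085. The median log2 fold change of the counts was 0.00018 over all 17747 genes tested. TPM levels and sums of Cond 2 thus lie somewhat higher against Cond 1 than these fold changes do.

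The libraries held 16441148 to 21871503 counts. Of 12 markers of pluripotent cells, all reached 1 TPM in each condition but for POU5F1, which was under 1 TPM in every Cond 2 library at 1.03 to 1.57 TPM in Cond 1, and which has near-identical copies in the genome that reads may not tell apart. By the study's qPCR, POU5F1 was also lower in the heated medium, and it was unchanged in the FBS medium. For its protein OCT4, the share of stained cells at a manual threshold fell in the heated medium and rose in the FBS medium. The study reports lower NANOG expression in the heated and the FBS medium, with the stronger decrease in the FBS medium. The summed level of the 12 markers ranged from 8742 to 9014 TPM in Cond 1, 7509 to 8623 in Cond 2, 8888 to 9621 in Cond 3 and 8585 to 9071 in Cond 4, with 4 rising and 5 falling in Cond 2 and 5 rising and 4 falling in Cond 3. Their log2 fold changes ran from -1.50 to 0.44 in Cond 2 and from -2.16 to 0.46 in Cond 3. The sum therefore did not show the falls in Cond 3. Of all genes tested, for this and the following lists, 10.8% rose and 10.1% fell in Cond 2, and 19.5% rose and 18.8% fell in Cond 3. The summed level of 10 neuroectoderm markers ran from 23.4 to 37.3 TPM in Cond 1, 474.9 to 771.6 in Cond 2, 61.7 to 79.0 in Cond 3 and 30.4 to 54.4 in Cond 4, with PAX6, SOX1 and EMX2 under 1 TPM throughout. Of these, 8 could be tested, of which 6 rose in Cond 2, and 2 rose and 1 fell in Cond 3. The 12 fibroblast and mesenchyme markers summed to 528.0 to 559.8 TPM in Cond 1, 407.7 to 471.5 in Cond 2, 712.7 to 752.3 in Cond 3 and 488.7 to 526.3 in Cond 4, with COL3A1, LUM and DCN under 1 TPM throughout, and of 9 tested, 3 fell in Cond 2, and 4 rose and 1 fell in Cond 3. The 10 mesendoderm markers summed to at most 6.05 TPM in any library, and of 2 tested, none was called in Cond 2 and 1 rose in Cond 3. The 10 surface ectoderm markers summed to 574.5 to 677.0 TPM in Cond 1, 513.3 to 561.2 in Cond 2, 466.8 to 485.6 in Cond 3 and 547.9 to 624.2 in Cond 4, with TP63 and TFAP2B under 1 TPM throughout, and of 8 tested, 5 rose and 2 fell in Cond 2, and 3 rose and 1 fell in Cond 3. The median log2 fold change of these 8 was 2.52 in Cond 2 and -0.0025 in Cond 3, so the sum did not show the rises in Cond 2. TFAP2A, DLX3, DLX5 and GATA3 were under 1 TPM in every Cond 1 library and reached 1 TPM in at least 1 Cond 2 library. The part of these markers in the changes below was not tested. In bulk RNA, fewer cells of a type and less RNA per cell cannot be told apart.

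Promoter sequence, the 250 bases before the RefSeq transcription start, was found in the RefSeq table for CCND3, CCNE1, CDKN1A, CDKN1B and MYCN. Not found there were CCND1, CCND2, CCNE2, CDKN1C and MYC. The 3 promoters below belong to the members that rose most, fell most and were most abundant among these 5 in the data, and capitals mark E2F-type sites and GC boxes. The letters searched on both strands were TTTCCCGC, TTTCGCGC, TTTGCCGC and TTTGGCGC for E2F, CACGTG for the E-box of MYC, GGGCGG for the GC box and TATAAA for the TATA box.
CCNE1: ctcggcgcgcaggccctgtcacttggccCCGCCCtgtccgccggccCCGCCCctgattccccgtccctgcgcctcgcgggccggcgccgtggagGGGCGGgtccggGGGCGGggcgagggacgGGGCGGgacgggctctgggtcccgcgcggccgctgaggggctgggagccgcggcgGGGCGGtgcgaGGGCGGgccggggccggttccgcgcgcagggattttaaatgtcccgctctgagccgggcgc
CDKN1A: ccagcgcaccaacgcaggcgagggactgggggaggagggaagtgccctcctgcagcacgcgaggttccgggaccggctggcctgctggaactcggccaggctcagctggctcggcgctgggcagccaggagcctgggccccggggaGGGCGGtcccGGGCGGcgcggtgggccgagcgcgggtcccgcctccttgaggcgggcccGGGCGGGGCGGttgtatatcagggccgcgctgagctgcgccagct
MYCN: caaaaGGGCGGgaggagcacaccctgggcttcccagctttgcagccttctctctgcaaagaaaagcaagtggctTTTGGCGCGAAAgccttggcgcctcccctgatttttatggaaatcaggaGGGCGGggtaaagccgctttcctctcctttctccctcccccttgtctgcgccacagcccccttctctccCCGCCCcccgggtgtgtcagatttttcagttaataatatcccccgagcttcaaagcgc

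These stretches lie on the plus strand of GRCh38.p14 at chr19:29811741-29811990 for CCNE1, chr6:36678464-36678713 for CDKN1A and chr2:15940300-15940549 for MYCN. The gene spans given below are those of GENCODE, whose starts can differ from RefSeq. The CDKN1A window lies inside that span, as do the windows of CCND3 and CDKN1B. The CCNE1 promoter was 81.2% G and C and held 7 GC boxes, the CDKN1A promoter was 76.4% G and C with 4, and the MYCN promoter was 57.2% with 3, where the median of all promoters was 58.0%. At least 3 GC boxes occurred in 13.9% of the 35116 promoters of the table. The MYCN promoter had 2 overlapping E2F-type matches, TTTGGCGC from base -176 on the plus strand and TTTCGCGC from base -172 on the minus strand, and an E2F-type match occurred in 2.79% of all promoters. No E-box and no TATA box was found in these 3 windows, against 6.34% and 10.7% of all promoters. A match is a run of letters and was not tested as a binding site.

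CCND1 (chromosome 11, 69641156 to 69654474, GRCh38), the main D-type cyclin of these cells, read 253.5, 247.0 and 251.8 TPM in the Cond 1 libraries, 317.9, 300.9 and 309.8 in Cond 2, 248.6, 233.5 and 228.8 in Cond 3, and 265.5, 270.0 and 281.1 in Cond 4. Every Cond 2 library lay above all other libraries, whereas Cond 3 overlapped with Cond 1. CCND1 rose 1.16-fold in Cond 2, a log2 fold change of 0.22 ± 0.051 (SE, 3 libraries against 3, adjusted p = 0.00292 by edgeR with Benjamini-Hochberg adjustment), and read -0.11 in Cond 3 (adjusted p = 0.0941).

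CCND2 (chromosome 12, 4269771 to 4305353), a D-type cyclin that many tissues induce on growth signals, read 51.1, 42.3 and 46.8 TPM in Cond 1, 39.0, 37.8 and 38.9 in Cond 2, 17.0, 14.2 and 15.2 in Cond 3, and 50.2, 48.6 and 55.9 in Cond 4. The Cond 3 libraries formed the lowest group and the Cond 2 libraries the next, neither overlapping with Cond 1, whereas Cond 1 and Cond 4 overlapped. CCND2 fell by 0.36 ± 0.078 on the log2 scale in Cond 2 (adjusted p = 0.00129 by edgeR) and by 1.62 ± 0.082 in Cond 3 (adjusted p = 6.22e-13), which is 3.08-fold lower. The Cond 2 difference was not called by limma on log2(TPM + 1), at -0.27 (adjusted p = 0.0794).

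CCND3 (chromosome 6, 41934934 to 42050357, minus strand), the D-type cyclin best known from blood cells, read 19.7, 18.8 and 18.6 TPM in Cond 1, 15.8, 19.6 and 16.1 in Cond 2, 25.4, 25.3 and 22.8 in Cond 3, and 17.2, 16.4 and 17.5 in Cond 4. Cond 3 lay above all other libraries, and Cond 2 overlapped with Cond 1 through 1 library. CCND3 rose by 0.33 ± 0.089 on the log2 scale in Cond 3 (adjusted p = 0.00482 by edgeR) and read -0.24 in Cond 2 (adjusted p = 0.0691). Without that library, replicate 2 of Cond 2, it read -0.33 (adjusted p = 0.0216).

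The D-type cyclins summed to 316.6 ± 8.18 TPM (SD, n = 3) in Cond 1, 365.2 ± 7.28 in Cond 2, 276.9 ± 12.6 in Cond 3 and 340.8 ± 11.9 in Cond 4. In Cond 2 the sum carries the upward TPM shift given above. CCND1 held 79.2% ± 1.02 of this sum in Cond 1, 84.7% ± 0.667 in Cond 2, 85.6% ± 0.177 in Cond 3 and 79.9% ± 0.661 in Cond 4. CCND2 held 14.7% in Cond 1 and 5.58% in Cond 3, and CCND3 held 6.02% and 8.84%, so that their order was exchanged in Cond 3. The CCND1 share did not overlap between Cond 1 and Cond 2 or Cond 3, with an exact two-sided permutation p of 0.1, the smallest that 3 against 3 libraries allow (0.145 after adjustment over 16 tests of make-up).

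**Figure D1:**
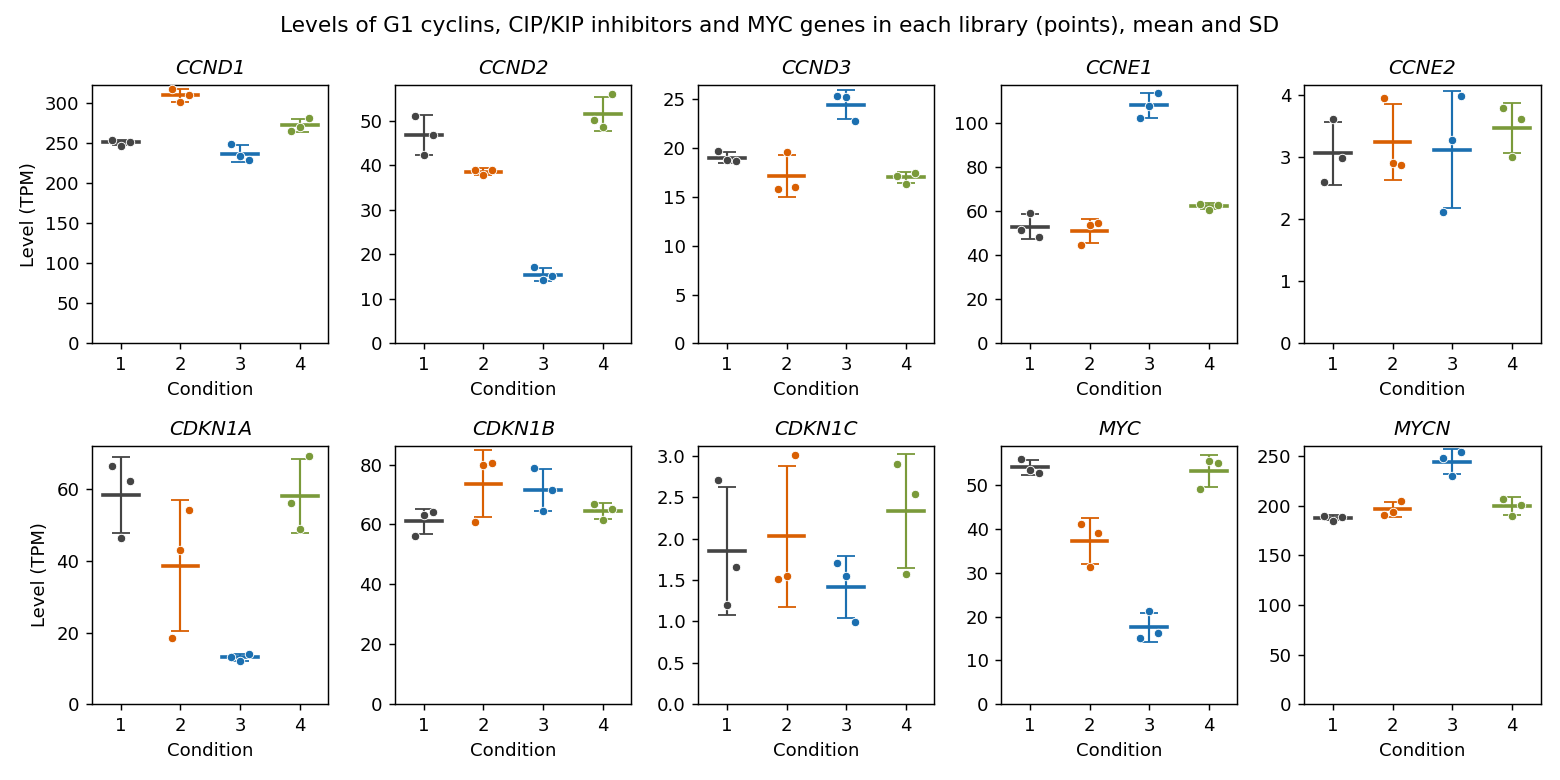
Level in TPM (linear axis from 0) of each of the 10 genes in the 4 conditions. Points are libraries, the long bar is the mean and the whiskers are 1 SD of 3 libraries, and the lowest CCND2, CDKN1A and MYC points all belong to Cond 3, where CCNE1 and MYCN are highest.

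CCNE1 (chromosome 19, 29811991 to 29824312), the cyclin that activates CDK2 late in G1, read 51.5, 59.3 and 48.3 TPM in Cond 1, 44.5, 53.6 and 54.5 in Cond 2, 102.3, 107.9 and 113.8 in Cond 3, and 63.3, 60.6 and 63.0 in Cond 4. All Cond 3 libraries stood far above the rest, Cond 1 and Cond 2 overlapped, and Cond 4 lay just above Cond 1. CCNE1 rose 2.00-fold in Cond 3, with a 95% interval of 1.77 to 2.26 (log2 fold change 1.00 ± 0.085, adjusted p = 3.78e-09 by edgeR), and leaving out single libraries gave 0.95 to 1.08, on both sides of the 2-fold limit used below. In Cond 2 it read -0.15 on that scale (adjusted p = 0.275).

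CCNE2 (chromosome 8, 94879770 to 94896678, minus strand), the second E-type cyclin, was at 2.12 to 3.99 TPM over all 12 libraries, and every pair of conditions overlapped. On the log2 scale it differed from Cond 1 by 0.0024 in Cond 2, by -0.00095 in Cond 3 and by 0.17 in Cond 4, and the 95% interval in Cond 3 ran from -0.52 to 0.51. Each library gave it 57 to 93 reads, and 1629 of its exonic bases overlap with INTS8 on the opposite strand, which had 1366 to 1760 reads. The strand setting of the counting is not given in the sources used here, so reads of the 2 genes may not have been separated. The same holds for CCND1 and LTO1, with 497 shared exonic bases and 401 to 566 reads of LTO1, and for MYCN and MYCNOS, with 98 bases and 57 to 122 reads. Genes with counts on the opposite strand of other members had at most 27 reads. On the same strand, CCND2 shares 999 exonic bases with ENSG00000285901, which had 0 reads in every library. No strand setting can separate reads in that stretch, and how they were assigned is not given. The log2 ratio of CCNE1 to CCNE2 was 4.12 ± 0.163 (SD, n = 3) in Cond 1 and 5.16 ± 0.393 in Cond 3, without overlap (exact permutation p = 0.1, the smallest possible).

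CDKN1A (chromosome 6, 36676460 to 36687337), which encodes the p53-induced inhibitor p21, read 66.6, 46.5 and 62.2 TPM in Cond 1, 18.5, 43.1 and 54.2 in Cond 2, 13.2, 12.04 and 14.1 in Cond 3, and 56.2, 49.0 and 69.3 in Cond 4. Cond 3 was low and tight, Cond 4 and Cond 1 overlapped, and Cond 2 was spread widely, with 1 library near the Cond 3 level and 1 inside the Cond 1 range. CDKN1A fell by 2.19 ± 0.231 on the log2 scale in Cond 3 (adjusted p = 1.05e-07 by edgeR), 4.56-fold lower and the largest change of any member. In Cond 2 it fell by 0.70 ± 0.212 (adjusted p = 0.0208). That call rested on single libraries: without replicate 1 of Cond 2 it read -0.38 on the log2 scale (adjusted p = 0.0568), without replicate 1 of Cond 1 it was -0.60 (adjusted p = 0.0969), and without replicate 3 of Cond 1 it was -0.64 (adjusted p = 0.0743). DESeq2 did not call it either (adjusted p = 0.136). Replicate 1 was also the Cond 2 library with the highest summed neuroectoderm markers (771.6 TPM) and the lowest summed pluripotent markers (7509 TPM), and their part in its CDKN1A level was not tested.

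CDKN1B (chromosome 12, 12685498 to 12722369), which encodes the inhibitor p27 of quiescent cells, read 56.3, 63.0 and 64.0 TPM in Cond 1, 60.7, 79.7 and 80.5 in Cond 2, 78.7, 64.6 and 71.5 in Cond 3, and 66.9, 61.5 and 65.0 in Cond 4. The Cond 3 libraries were all above Cond 1 by a narrow margin and the other conditions overlapped with it. The log2 fold change was 0.18 in Cond 2 (adjusted p = 0.20 by edgeR) and 0.20 in Cond 3 (adjusted p = 0.10), neither called. It passed the threshold when 1 library was left out, at 0.28 (adjusted p = 0.0271) without replicate 1 of Cond 2 and 0.27 (adjusted p = 0.0482) without replicate 2 of Cond 3.

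CDKN1C (chromosome 11, 2883213 to 2885775, minus strand), the imprinted inhibitor p57, was at 0.99 to 3.02 TPM with 13 to 37 reads a library. Its log2 fold changes were 0.028 in Cond 2, -0.41 in Cond 3 and 0.31 in Cond 4, and the 95% interval in Cond 3 ran from -1.29 to 0.46, which includes a 2-fold decrease.

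The CIP/KIP genes summed to 121.4 ± 9.33 TPM (SD, n = 3) in Cond 1, 114.3 ± 29.8 in Cond 2, 86.1 ± 7.72 in Cond 3 and 125.0 ± 12.4 in Cond 4. CDKN1A and CDKN1B were close to equal in Cond 1, with 47.9% ± 5.57 and 50.6% ± 6.08 of the sum. CDKN1A held 32.3% ± 8.48 in Cond 2, 15.2% ± 1.11 in Cond 3 and 46.3% ± 3.77 in Cond 4. Its share did not overlap between Cond 1 and either Cond 2 or Cond 3 (exact permutation p = 0.1 each, the smallest possible), and overlapped between Cond 1 and Cond 4 (exact permutation p = 0.8).

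**Figure D2:**
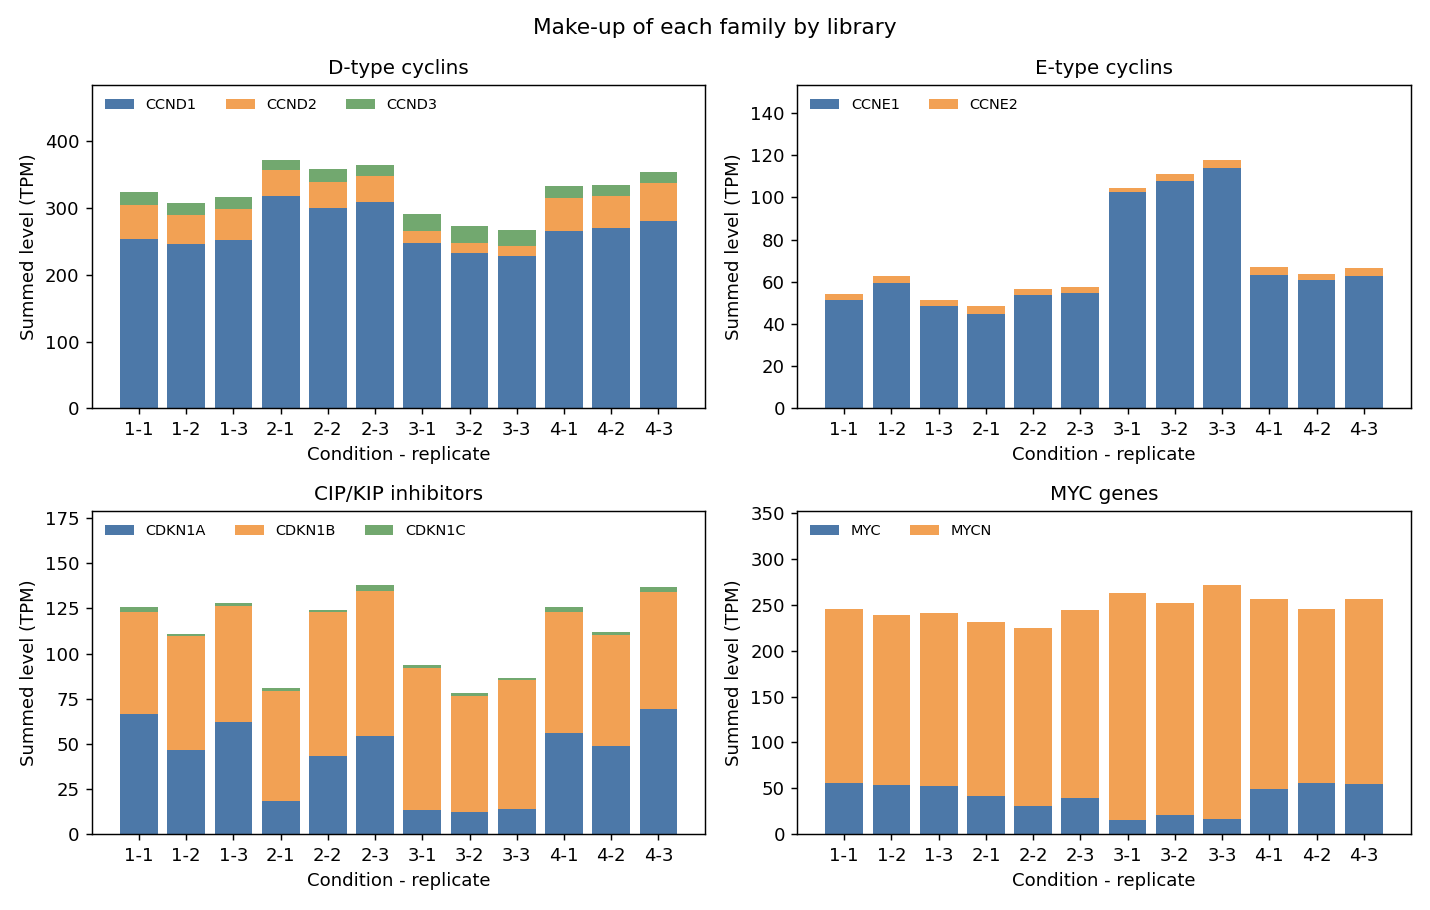
Summed TPM (linear axis from 0) of each family in each of the 12 libraries, labelled condition and replicate, split by gene. The CDKN1A block is smallest in the 3 Cond 3 libraries and small in replicate 1 of Cond 2, and the MYC block shrinks from Cond 1 to Cond 2 and Cond 3 under a larger MYCN block.

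MYC (chromosome 8, 127735434 to 127742951) read 56.0, 53.5 and 52.7 TPM in Cond 1, 41.2, 31.3 and 39.1 in Cond 2, 15.1, 21.3 and 16.3 in Cond 3, and 49.1, 55.5 and 55.1 in Cond 4. The libraries fell into 3 levels with no overlap, Cond 3 lowest, Cond 2 between, and Cond 1 together with Cond 4 highest. MYC fell by 0.63 ± 0.109 on the log2 scale in Cond 2, 1.54-fold lower (adjusted p = 1.68e-04 by edgeR), and by 1.65 ± 0.115 in Cond 3, 3.14-fold lower (adjusted p = 1.46e-10). Leaving out single libraries gave -0.73 to -0.50 in Cond 2 and -1.81 to -1.54 in Cond 3.

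MYCN (chromosome 2, 15940550 to 15947007), the MYC gene of neural and embryonic cells, read 189.7, 185.2 and 188.7 TPM in Cond 1, 190.5, 193.5 and 205.3 in Cond 2, 248.2, 230.5 and 254.8 in Cond 3, and 207.4, 189.6 and 201.2 in Cond 4. Cond 3 lay above all other libraries. MYCN rose by 0.35 ± 0.057 on the log2 scale in Cond 3, 1.28-fold (adjusted p = 3.34e-05 by edgeR). In Cond 2 the TPM values lay just above Cond 1 without overlap, yet the log2 fold change of the TMM-scaled counts was -0.023 (adjusted p = 0.833) and that of limma on log2(TPM + 1) was 0.063, so the direction in Cond 2 differed between these fits, and the cause was not tested. Across the 14253 genes with at least 1 TPM in every library, the median difference on that TPM scale was 0.085 in Cond 2.

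MYCN was the more abundant of the pair per length of gene in all 12 libraries. The 2 genes summed to 241.9 ± 3.55 TPM (SD, n = 3) in Cond 1, 233.6 ± 9.93 in Cond 2, 262.0 ± 9.70 in Cond 3 and 252.6 ± 6.49 in Cond 4, while the MYC share was 22.3% ± 0.487, 15.9% ± 1.93, 6.74% ± 1.51 and 21.1% ± 1.80. The log2 ratio of MYC to MYCN, which does not depend on the scaling of a library, was -1.80 ± 0.041 in Cond 1, -2.41 ± 0.210 in Cond 2, -3.81 ± 0.331 in Cond 3 and -1.91 ± 0.158 in Cond 4. It did not overlap between Cond 1, Cond 2 and Cond 3 (exact permutation p = 0.1 for each pair, the smallest possible, 0.145 after adjustment), and Cond 4 overlapped with Cond 1 (exact permutation p = 0.3).

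In Cond 2, 4 of the 10 genes were called at an adjusted p under 0.05, CCND1 higher and CCND2, CDKN1A and MYC lower, where 20.9% of all 17747 genes tested were called. None of the 4 passed a 2-fold change, which 4.34% of all genes did. In Cond 3, 6 of the 10 were called, CCNE1, CCND3 and MYCN higher and CDKN1A, MYC and CCND2 lower, against 38.4% of all genes. CCND2, CCNE1, CDKN1A and MYC passed the 2-fold limit, against 8.16% of all genes. The median log2 fold change over the 10 genes was -0.084 in Cond 2 and -0.055 in Cond 3, beside 0.00018 and -0.0064 over all genes, since members of both directions were present. The comparisons with Cond 1 share the same 3 control libraries.

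**Figure D3:**
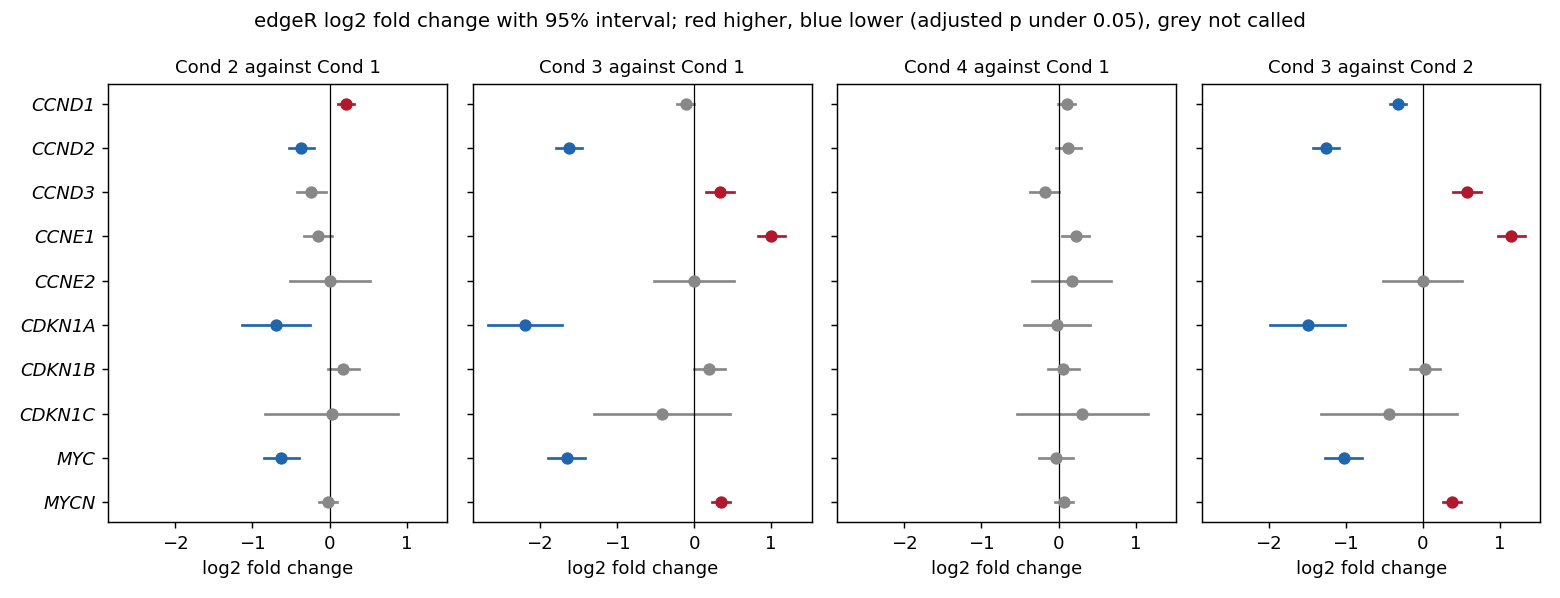
The edgeR log2 fold change of each gene (point) with its 95% interval (line) in 4 comparisons, where red is higher and blue lower at an adjusted p under 0.05 and grey is not called. The intervals of CCNE2 and CDKN1C are the widest, and all 10 points of Cond 4 are grey.

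In Cond 4 none of the 10 genes was called by edgeR, against 0.0282% of all genes tested (0.0225% higher, 0.00563% lower and 0.0169% with a 2-fold change), and none was called by DESeq2 or limma. At an unadjusted p under 0.05 there were 1102 of the 17747 genes and 1 of the 10 members, CCNE1, with a log2 fold change of 0.22 ± 0.087 (unadjusted p = 0.0181, adjusted p = 0.790), and all 3 Cond 4 libraries were above all 3 of Cond 1. CCND1 was next at 0.11 (unadjusted p = 0.0504), with an interval from -0.00022 to 0.21, and its 3 Cond 4 libraries also lay above Cond 1. CCND3 read -0.18 (unadjusted p = 0.0660), with all 3 Cond 4 libraries below Cond 1. Such a separation has an exact permutation p of 0.1, the smallest possible. The share of all genes separated in this way was not counted. The intervals of CCND1, CCND2, CCND3, CCNE1, CDKN1A, CDKN1B, MYC and MYCN lay within -0.45 and 0.41, so a 2-fold change of these 8 was outside their 95% intervals. Those of CCNE2 (-0.35 to 0.69) and CDKN1C (-0.54 to 1.17) were wider.

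Cond 3 was also set against Cond 2, the other altered medium, which by the study's account was given for longer before harvest. Differences of medium and of exposure time cannot be told apart in this comparison. Here 7 of the 10 genes were called, against 38.2% of all genes tested, and CCND2, CCNE1, CDKN1A and MYC passed a 2-fold change, against 8.77%. MYC lay near that limit, at -0.99 with upper-quartile scaling and at -1.19 to -0.92 when single libraries were left out. CCNE1 (log2 fold change 1.15 ± 0.086), CCND3 (0.57 ± 0.090) and MYCN (0.37 ± 0.057) were higher in Cond 3. CDKN1A (-1.49 ± 0.234), CCND2 (-1.26 ± 0.082), MYC (-1.03 ± 0.116) and CCND1 (-0.33 ± 0.051) were lower, with adjusted p-values from 5.52e-11 for CCND2 to 2.36e-05 for CDKN1A by edgeR. CDKN1B differed by 0.020 (adjusted p = 0.892).

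The kinases and activators that the cyclins work with moved by small amounts. Of 8 such genes, 2 rose and 3 fell in Cond 2, where 10.8% and 10.1% of all genes did, and 3 rose and 4 fell in Cond 3, where 19.5% and 18.8% of all genes did. CDK4, the partner of D-type cyclins, rose from 142.6 ± 3.52 TPM (SD, n = 3) in Cond 1 to 173.9 ± 5.59 in Cond 2 and 176.4 ± 2.82 in Cond 3, with log2 fold changes of 0.20 and 0.28. CDK6, the other such partner, fell by 0.45 ± 0.086 in Cond 2 and by 0.40 ± 0.086 in Cond 3. CDC37, a chaperone for CDK4 and other kinases, rose by 0.46 ± 0.057 in Cond 3, and MNAT1, a subunit of the CDK-activating kinase, fell by 0.46 ± 0.111. CDK2 (0.26) and CCNH (-0.34, cyclin H) were called in Cond 2, but CDK2 was no longer called in 4 of 6 and CCNH in 3 of 6 fits that each left out 1 library. CDK7, called at -3.00 in Cond 3, had a median of 0.777 TPM in Cond 1 with 1 library at 7.19, and without that library, replicate 2, it was not called (-0.93, adjusted p = 0.435).

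Of the INK4 inhibitors, which block CDK4 and CDK6, 3 of 4 had enough reads. CDKN2D (p19) rose from 3.76 ± 0.355 TPM to 10.2 ± 1.40 in Cond 3 (log2 fold change 1.40 ± 0.292, adjusted p = 5.31e-04 by edgeR), while CDKN2A and CDKN2B averaged under 1 TPM in every condition. The highest CDKN2A value in a Cond 4 library was 2.21 TPM. CDKN2C did not have enough reads to be tested. Of 12 tested genes of the retinoblastoma family and its E2F and DP partners, 3 rose in Cond 2 (10.8% of all genes), and 6 rose and 1 fell in Cond 3 (19.5% and 18.8%). RBL1 (p107) rose by 0.68 ± 0.113 and TFDP1, the main partner of E2F factors, by 0.61 ± 0.056 in Cond 3, and E2F6, a repressor, fell by 0.56 ± 0.102. In Cond 2, E2F7, an atypical repressor, rose by 0.42 ± 0.096, and RBL1 by 0.37 ± 0.114, a call lost in 3 of 6 fits without 1 library.

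The genes that E2F factors activate for S phase rose together in Cond 3: of 19 tested, 16 rose and none fell, with a median log2 fold change of 0.41, where 19.5% of all genes were called higher and the median of all genes was -0.0064. In Cond 2, 8 rose and 1 fell with a median of 0.11, where 10.8% of all genes were called higher and 10.1% lower. UHRF1, which guides maintenance DNA methylation, rose from 41.3 ± 3.50 TPM to 61.8 ± 0.646 in Cond 2 and 146.9 ± 10.3 in Cond 3 (log2 fold changes 0.50 and 1.80). POLA1, the catalytic subunit of DNA polymerase alpha, rose by 0.75 ± 0.066 in Cond 3, and CDC6, a licensing factor, by 0.60 ± 0.059 in Cond 2. MCM6, a helicase subunit, was the 1 gene that fell in Cond 2 (-0.15, lost in 4 of 6 fits without 1 library).

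Most of the other p53 targets tested were also lower in Cond 3. Of 25 tested p53 targets, not counting CDKN1A itself, 17 fell and 2 rose in Cond 3 with a median log2 fold change of -0.61, where 18.8% of all genes were called lower, and 6 fell and 1 rose in Cond 2 with a median of -0.14. GDF15, a secreted stress factor, fell from 124.5 ± 31.6 TPM in Cond 1 to 78.2 ± 24.9 in Cond 2 and 8.01 ± 1.02 in Cond 3 (log2 fold changes -0.76 and -3.99). PLK3, a stress kinase, fell by 1.38 ± 0.168 in Cond 3, and RRM2B, the p53-induced ribonucleotide reductase subunit, by 0.73 ± 0.085 in Cond 2. The members that went against the majority were GADD45A in Cond 2 (0.58 ± 0.109) and FAS (1.67 ± 0.278) and TP53I3 (0.97 ± 0.121) in Cond 3, and GADD45A itself was lower in Cond 3 (-1.14 ± 0.117). MDM2, the p53 ligase, was lower in Cond 3 (-0.57 ± 0.071) and read -0.06 in Cond 2 (adjusted p = 0.625 by edgeR). GADD45A in Cond 3 and MDM2 were named after their values were seen.

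**Figure D4:**
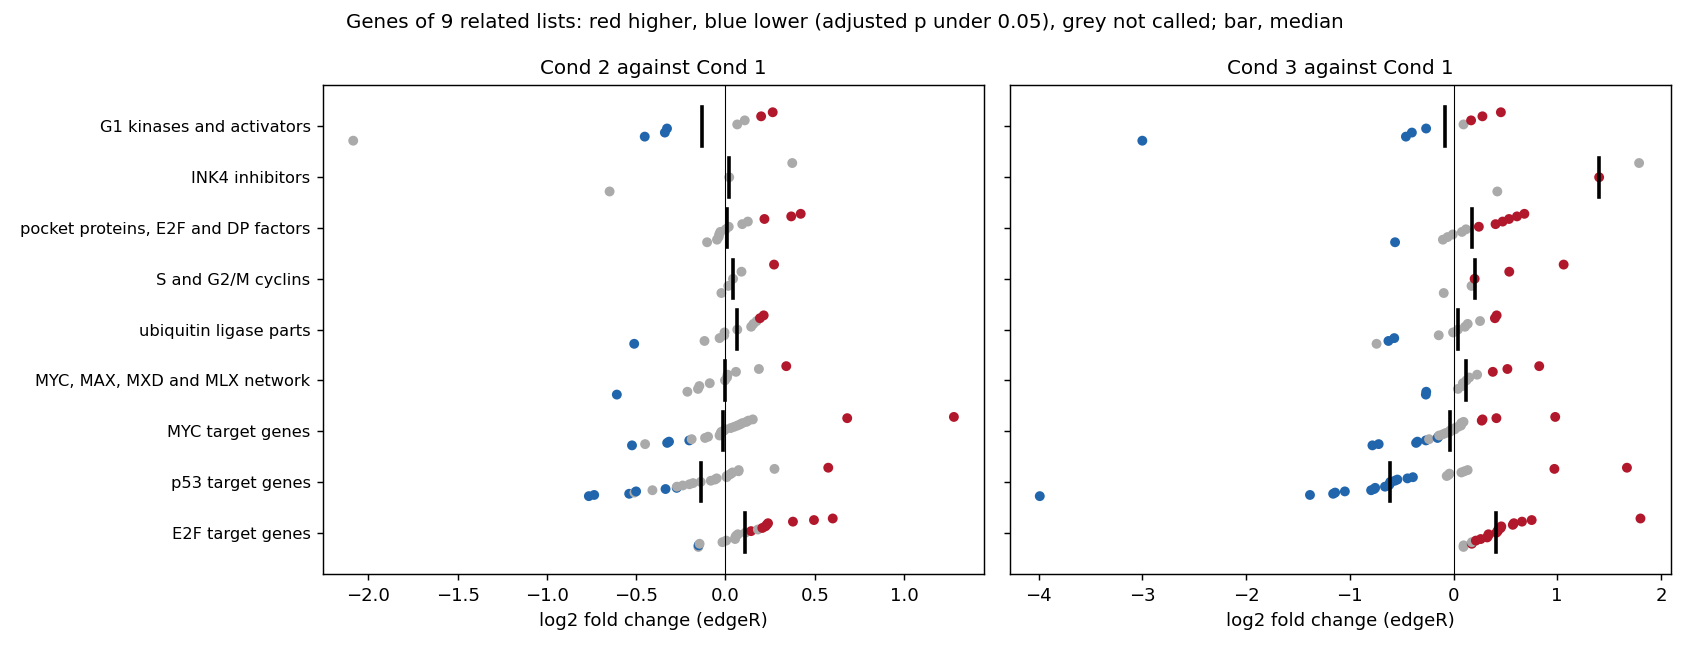
Each dot is the edgeR log2 fold change of a gene of 9 related lists, red higher, blue lower and grey not called, with the list median as a black bar. The bar stands at 0.41 for E2F targets and at -0.61 for p53 targets in Cond 3, against -0.034 for MYC targets.

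Of 11 other genes of the wider network of MYC, MAX, MXD and MLX factors, 1 rose and 1 fell in Cond 2, and 3 rose and 2 fell in Cond 3, beside 20.9% and 38.4% of all genes called in either direction. MXD4, a MAX partner that represses, rose by 0.83 ± 0.094 in Cond 3, and MAX itself and the repressor MNT fell by 0.26 ± 0.089 and 0.27 ± 0.091, calls that were each lost in 4 of 6 fits without 1 library. MLXIPL, the glucose-responsive factor ChREBP, moved in opposite directions, -0.61 ± 0.159 in Cond 2 and 0.52 ± 0.152 in Cond 3, each lost in 1 of 6 such fits. MGA was higher in Cond 2 (0.34 ± 0.087), also lost in 1 of 6.

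Of 24 tested genes known as MYC targets, 2 rose and 4 fell in Cond 2, and 4 rose and 7 fell in Cond 3, with medians of -0.015 and -0.034. Both counts stand beside the 20.9% and 38.4% of all genes called in either direction. ODC1, the first enzyme of polyamine synthesis, rose by 0.68 ± 0.056 in Cond 2 and fell by 0.78 ± 0.056 in Cond 3. LDHA, lactate dehydrogenase, did the reverse, with a fall by 0.33 ± 0.068 in Cond 2 and a rise by 0.98 ± 0.067 in Cond 3. TERT, the telomerase subunit, also turned, at -0.52 ± 0.136 and 0.41 ± 0.131 (the latter lost in 1 of 6 fits without 1 library), and RRP12, a ribosome assembly factor, fell by 0.72 ± 0.060 in Cond 3. FBL was called at 1.28 in Cond 2, but this came from 1 library at 34.4 TPM against a Cond 2 median of 6.21, and without it, replicate 1, the log2 fold change was -0.19.

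Of 11 genes of the ubiquitin control of cyclins, KIP proteins and MYC, mostly ligase parts and with the deubiquitinase USP28 among them, 2 rose and 1 fell in Cond 2, and 2 rose and 2 fell in Cond 3, where 20.9% and 38.4% of all genes were called. SKP2, the subunit that targets p27, rose by 0.21 ± 0.067 in Cond 2, a call lost in 3 of 6 fits without 1 library, and by 0.40 ± 0.067 in Cond 3, whereas its cofactor CKS1B fell by 0.63 ± 0.072 in Cond 3. AMBRA1, the receptor that degrades D-type cyclins, rose by 0.42 ± 0.083 in Cond 3. USP28, a deubiquitinase of MYC, fell by 0.51 ± 0.063 in Cond 2 and 0.57 ± 0.063 in Cond 3, and CUL1, the scaffold, rose by 0.19 ± 0.057 in Cond 2, lost in 4 of 6 fits. Of 5 later cyclins, 1 rose in Cond 2 and 3 in Cond 3, beside 10.8% and 19.5% of all genes. CCNA2 rose by 0.27 ± 0.055 in Cond 2 and by 0.20 ± 0.055 in Cond 3, and CCNB1, the mitotic cyclin, rose by 0.54 ± 0.062 in Cond 3. CCNA1, at 1.06 in Cond 3, was not called in 5 of 6 fits without 1 library. In Cond 4 no gene of these 9 lists was called by edgeR or DESeq2, and 9 of 118 had an unadjusted p under 0.05 by either tool, beside 1102 of all 17747 genes by edgeR.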

How the data were processed

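RNA-Seq was measured in 12 strand-specific poly(A) libraries of 201B7, 3 for each of 4 conditions. Per the labels and the methods, reads were trimmed, aligned to GRCh38 with HISAT2 2.1.0 and counted on genes with featureCounts, whose version and strand setting are not given in the sources used here, nor is the handling of reads with several matches. The authors deposited whole-number counts per gene without normalization, and the deposited TPM values follow from these counts and the gene lengths (largest relative deviation 1.79e-14). Of 58580 lines of counts, 5 held no whole gene and were left out, and 2042 genes with TPM had no count line, among them PES1, MCM5 and FBLN1.

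Counts were scaled by TMM (factors 0.973 to 1.01), filtered to 17747 genes with filterByExpr and fitted over all 12 libraries with edgeR 4.0.16 (R 4.3.3), whose quasi-likelihood test gave the p-values. They were adjusted by Benjamini-Hochberg over all genes tested, and a gene was called at an adjusted p under 0.05. The study's methods name limma on TPM with a fold change above 2. limma 3.58.1 on log2(TPM + 1) and log2(TPM + 0.1) was an alternative here because counts were deposited, beside DESeq2 1.42.0, upper-quartile scaling, no filter on low counts, a TPM of at least 1, 6 libraries alone, the replicate block and each library left out. Shares and ratios were compared by exact two-sided permutation tests. At these depths CCNE2 and CDKN1C, with under 100 reads in every library, have wide intervals, which cover the spread between libraries. Libraries of a condition differed by more than sampling noise (chi-square per gene 4.02 to 9.52).

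The members and lists were chosen with earlier results of these data known. Named were the 10 members and, of each list, the 2 genes called at a mean TPM of at least 1 that rose most and the 2 that fell most in Cond 2 and Cond 3. For members called with a fold change above 2 against Cond 1, the genes most alike were the 2 nearest in root mean square difference of the 3 log2 fold changes against Cond 1, at a mean TPM of at least 5. Other genes named were chosen after their values were seen. Promoters came from RefSeq (GRCh38.p14) and gene positions from GENCODE. The methods were tested on simulated data.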

Additional observations from a re-analysis of the deposited data

How the results depend on the processing

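The members called in Cond 2 numbered 4 by edgeR, 2 by limma on log2(TPM + 1) or log2(TPM + 0.1), and 0 with a fold change above 2. Those called in Cond 3 against Cond 2 numbered 7, and 4 with a fold change above 2. Leaving out 1 library gave 3 to 5 members in Cond 2, 6 to 7 in Cond 3, 0 in Cond 4 and 7 in Cond 3 against Cond 2. In Cond 2 limma lost CCND2 and CDKN1A (adjusted p = 0.0794 and 0.260 on log2(TPM + 1)), and CDKN1A was also lost by DESeq2 (adjusted p = 0.136) and in the 6 libraries alone (adjusted p = 0.0580). No other call of a member was lost under the alternatives that used all libraries of a comparison. Over all genes, limma with at least 1 TPM in all libraries called 2677 higher and 1056 lower in Cond 2, and on all genes with log2(TPM + 1) 2171 and 894, against 1911 and 1790 by edgeR. It called 2252 higher and 3709 lower in Cond 3 against Cond 2, and on all genes 2378 and 3300, against 3366 and 3411. In Cond 4, 5 genes were called by edgeR, 12 by DESeq2, 52 without the filter, 8 in the 6 libraries alone, and 3 to 10 by limma.

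The signs that turned belonged to log2 fold changes and family ratios that passed no threshold. For CCNE2 in Cond 2 they were -0.00054 (DESeq2), -0.012 (upper-quartile), -0.0034 (no filter) and -0.0029 (6 libraries alone). For CCNE2 in Cond 3 they were 0.0037 (DESeq2), 0.020 (upper-quartile) and 0.0018 (limma on log2(TPM + 1), with and without the TPM minimum), and in Cond 3 against Cond 2 they were 0.0042 (DESeq2) and 0.032 (upper-quartile). Limma gave 0.063 for MYCN in Cond 2 and between -0.034 and -0.033 for CDKN1B in Cond 3 against Cond 2. Leaving out 1 library gave -0.19 to 0.13 for CCNE2 and -0.36 to 0.39 for CDKN1C in Cond 2, -0.22 to 0.22 for CCNE2 in Cond 3, -0.17 to 0.086 for CDKN1A and -0.068 to 0.022 for MYC in Cond 4, and -0.22 to 0.22 for CCNE2 and -0.082 to 0.088 for CDKN1B in Cond 3 against Cond 2. It also gave -0.27 to 0.10 in Cond 2 and -0.029 to 0.14 in Cond 4 for the log2 ratio of CCNE1 to CCNE2, and -4.53 to 0.995 percentage points for the CDKN1A share in Cond 4. The cause was not tested.

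With the replicate number as a block, 4 members were called in Cond 2, 6 in Cond 3, 0 in Cond 4 and 7 in Cond 3 against Cond 2, and over all genes 3750, 6854, 5 and 6780 against 3701, 6811, 5 and 6777 without it. Libraries of the same number deviated from their group means with correlations of -0.011 to 0.036, against -0.062 to 0.057 for other pairs, and 2 of 12 libraries correlated best with their own number in every other condition. The pairing was therefore not used.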

Other observations

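Among 11595 other genes with a mean of at least 5 TPM, those whose 3 log2 fold changes against Cond 1 were most like those of a member were picked by the root mean square difference over the 3 conditions, which share the Cond 1 libraries. For CCND2 they were SLC1A4, a transporter of neutral amino acids such as serine (0.071), and AC015813.1 (0.095). SLC1A4 read -0.40 in Cond 2, -1.73 in Cond 3 and 0.18 in Cond 4. For CCNE1 they were AC005747.1 (0.044) and TNFAIP2 (0.075), the latter at -0.051, 1.01 and 0.13. For CDKN1A they were AC006329.1 (0.10) and MFAP4, an extracellular matrix protein (0.128), the latter at -0.71, -2.25 and -0.23. For MYC they were AP002954.2 (0.081) and AC015813.1 (0.136), so that AC015813.1 was near both CCND2 and MYC.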
